A study of Homo sapiens with 18 samples.

Results

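TXNIP and ARRDC4, a pair of alpha-arrestin genes, were followed in RNA sequencing libraries of Cal51, a human breast cancer cell line. They are 2 of the 3647 genes that appear in at least 1 of 3 deposited tables, and they were picked by gene name because the authors had listed them there. The series has 18 libraries in 6 groups of 3. Those used here are 12 libraries of cells exposed for 8 h to fenofibrate, to ezetimibe, to fenofibrate plus ezetimibe (called the combination), or to DMSO. Fenofibrate is a lipid-lowering drug that activates the nuclear receptor PPARα, ezetimibe blocks the sterol transporter NPC1L1, and DMSO is the solvent in which such drugs are commonly given. No dose is stated in the labels, all groups are the same line with no engineered allele named, and nothing says that the 3 libraries of a group came from separate cultures, so a spread between them may be technical. The 6 libraries of PKM2 KO cells and their control are not analysed here.

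Alpha-arrestins are adaptor proteins built from a pair of arrestin folds. Most carry tail motifs that bind ubiquitin ligases of the NEDD4 family, through which membrane proteins are marked for removal. TXNIP binds and inhibits thioredoxin, and both TXNIP and ARRDC4 lower glucose uptake. Both genes are well known targets of MondoA (gene MLXIP), a transcription factor that works with MLX, senses glucose 6-phosphate and binds carbohydrate response elements, so their RNA is often read as a gauge of glucose entering the cell.

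Fenofibrate libraries had less RNA of both genes than DMSO libraries, TXNIP at 19.0% and ARRDC4 at 29.7% of the DMSO mean. Combination libraries differed from DMSO in the other direction for ARRDC4, at 2.00-fold the DMSO mean. TXNIP was not listed with the combination, and with ezetimibe alone neither gene was listed.

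The genes of the pair lie on different chromosomes. TXNIP (ENSG00000265972) is on the minus strand of chromosome 1 from 145992435 to 145996600 (hg38), and ARRDC4 (ENSG00000140450) is on the plus strand of chromosome 15 from 97960698 to 97973838. In GENCODE release 29, whose coordinates for both equal those in the tables, 0 other genes overlap either of them. The full-length coding transcript of each has 8 exons. That of TXNIP is 2926 bases long with 1173 coding bases, and that of ARRDC4 4072 with 1254.

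The promoters are shown because both genes were lower in the same libraries and both are known targets of a factor that binds this stretch of DNA. Each runs from 250 bases before to 50 bases after the RefSeq transcript start (GRCh38), which is the letter after the first 250. The TXNIP promoter covers chr1:145996530-145996829 on the minus strand and that of ARRDC4 chr15:97960453-97960752 on the plus strand. Capitals mark the matches to 3 motifs, searched on both strands. The first is a tandem element of 2 copies of CACGNG with any 5 bases between them, the spacing of carbohydrate response elements. The others are CACGTG, the E-box, and CCAAT, the box bound by NF-Y, which reads ATTGG on the other strand. The motifs were chosen after the sequences had been seen, so a match or its absence is no test. A response element of other letters would be missed by the tandem pattern.
TXNIP: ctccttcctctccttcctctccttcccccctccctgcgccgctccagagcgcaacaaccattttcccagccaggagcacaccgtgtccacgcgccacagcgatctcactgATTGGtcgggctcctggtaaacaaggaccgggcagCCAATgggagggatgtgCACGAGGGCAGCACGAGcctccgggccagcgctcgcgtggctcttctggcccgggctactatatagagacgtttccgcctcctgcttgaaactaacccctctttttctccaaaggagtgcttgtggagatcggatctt
ARRDC4: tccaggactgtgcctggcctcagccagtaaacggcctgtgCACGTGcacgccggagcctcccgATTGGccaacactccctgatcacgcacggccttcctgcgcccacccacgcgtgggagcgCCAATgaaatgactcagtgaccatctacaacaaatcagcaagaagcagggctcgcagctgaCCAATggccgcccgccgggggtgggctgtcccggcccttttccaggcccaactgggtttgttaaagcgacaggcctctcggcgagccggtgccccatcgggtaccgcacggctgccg

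The tandem element matched once in the TXNIP promoter, 88 bases before the start, and 20 of 35116 RefSeq promoters of this length (0.0570%) hold it. It did not match in the ARRDC4 promoter, which does not show that a response element of other letters is absent. There the E-box matched once, 210 bases before the start, a motif held by 7.26% of promoters and not matched in that of TXNIP. CCAAT boxes matched 2 times in the TXNIP promoter, 140 and 105 bases before the start, and 3 times in the ARRDC4 promoter, 187, 128 and 67 bases before it. At least 1 such box is found in 34.6% of promoters and at least 2 in 10.8%. The second TXNIP promoter in the table, at another start, held 0 matches to any of the 3 motifs. The first listed promoters of ARRDC1 and ARRDC3 held 1 CCAAT box each and that of ARRDC2 held 0 (its second held 1), with 0 matches to the other motifs in these 3. ARRDC5 had no entry. A match describes letters only and shows no binding in these cells.

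**Figure D1:**
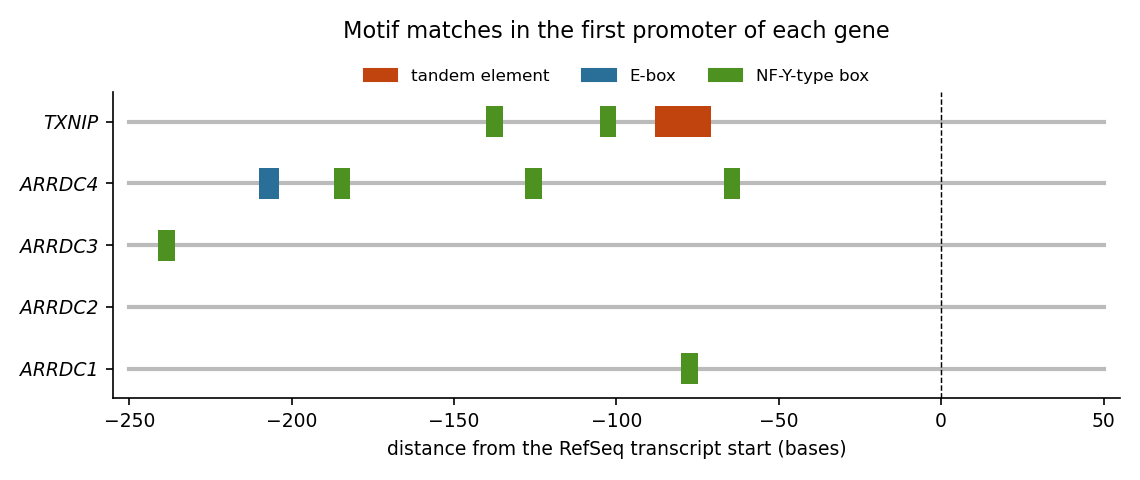
Motif matches along the first RefSeq promoter of 5 alpha-arrestin genes, with the distance from the transcript start in bases on the x axis and 1 row per gene. TXNIP shows 1 tandem element and 2 NF-Y-type (CCAAT) boxes, ARRDC4 shows 1 E-box and 3 such boxes, and the other 3 genes show at most 1 box.

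The tables hold normalised read counts, which are reads divided by 1 factor per library set by the authors within each table, and list only genes that changed by more than 1 on the log2 scale in either direction at an adjusted p below 0.05. The factors ran from 0.896 to 1.12, so a value of 1 is close to 1 read. The genes listed hold 40113 to 108822 reads per library in the fenofibrate table, 185127 to 339263 in the ezetimibe table and 2550718 to 3265200 in the combination table, and the total depth is unknown. Replicate libraries were not equally close. Among 2303 genes with a mean of at least 50 in the combination table, combination replicate 1 differed from replicates 2 and 3 by a median of 0.277 and 0.235 on the log2 scale, while these differed from each other by 0.105. Fenofibrate replicate 2 likewise differed from replicates 1 and 3 by 0.199 and 0.174, against 0.0886 between those (95 genes). DMSO replicates were not tight either, differing by 0.162 to 0.222 in the fenofibrate table and by 0.131 to 0.233 in the combination table, for the same genes. For the alpha-arrestins, values are given with and without combination replicate 1 and fenofibrate replicate 2. Of the other genes named, those whose log2 fold change moved by over 1.5 times without them were KBTBD8 and AL035071.1 with fenofibrate, and their values stand where they are described. Of the 5 epithelial and 4 leukocyte marker genes searched for, 0 were listed in any table, which shows only that none was called as changed. Of 5 fibroblast markers COL1A1 (262 ± 15.2 in combination libraries and 1021 ± 158 in DMSO libraries; ± is the SD, n = 3, throughout) and PDGFRB were listed as lower with the combination, and of 4 endothelial markers CDH5 as lower with ezetimibe (10.1 ± 3.38 in ezetimibe libraries and 26.9 ± 10.3 in DMSO libraries). Their part in the results was not tested.

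The first comparison asked what fenofibrate did to the pair. TXNIP had normalised read counts of 92.9, 67.0 and 82.9 in fenofibrate replicates 1 to 3, against 437, 422 and 417 in DMSO replicates 1 to 3. These rest on 94, 60 and 86 whole reads with fenofibrate and 458, 473 and 400 with DMSO. Every fenofibrate library lay below every DMSO library, and the DMSO libraries were close together. The means were 80.9 ± 13.1 with fenofibrate and 425 ± 10.3 with DMSO, and the log2 fold change was -2.39 ± 0.15 (limma, SE). Without fenofibrate replicate 2, the lowest library, it was -2.26.

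ARRDC4 had normalised read counts of 87.0, 81.5 and 87.7 in fenofibrate replicates 1 to 3, against 287, 242 and 335 in DMSO replicates 1 to 3, from 88, 73 and 91 whole reads with fenofibrate and 301, 271 and 321 with DMSO. The groups did not overlap, and here the fenofibrate libraries were the close ones while DMSO spread. Means were 85.4 ± 3.41 with fenofibrate and 288 ± 46.5 with DMSO, with a log2 fold change of -1.73 ± 0.15, or -1.70 without fenofibrate replicate 2. Because bulk RNA was measured, fewer cells with the transcript and less transcript per cell cannot be told apart.

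These values chose the genes, so no test of them is given. Only genes called as changed are listed, which favours groups without overlap, here and in the comparisons below. Every listed gene of the gene lists used here also had treated and DMSO groups without overlap. In the authors' deposited table for fenofibrate, 102 of an inferred 12215 tested genes were listed (0.835%), of which 9 were lower (0.0737% of those tested). By the authors' log2 fold change TXNIP (-2.39) was the first and ARRDC4 (-1.75) the third of these 9 by size, with SERF1B (which has the near-identical copy SERF1A) between them, and the median size of the 9 was 1.14. The remaining 6 were RGPD6, CENPE, KBTBD8, CALB1, ZNF714 and PCDH17. Of the 7 of the 9 genes that had a promoter in the RefSeq table, the tandem element was held by 1 (TXNIP), an E-box by 2 (ARRDC4 and CENPE) and a CCAAT box by 4 (TXNIP, ARRDC4, ZNF714 and PCDH17), a motif in 34.6% of all promoters.

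**Figure D2:**
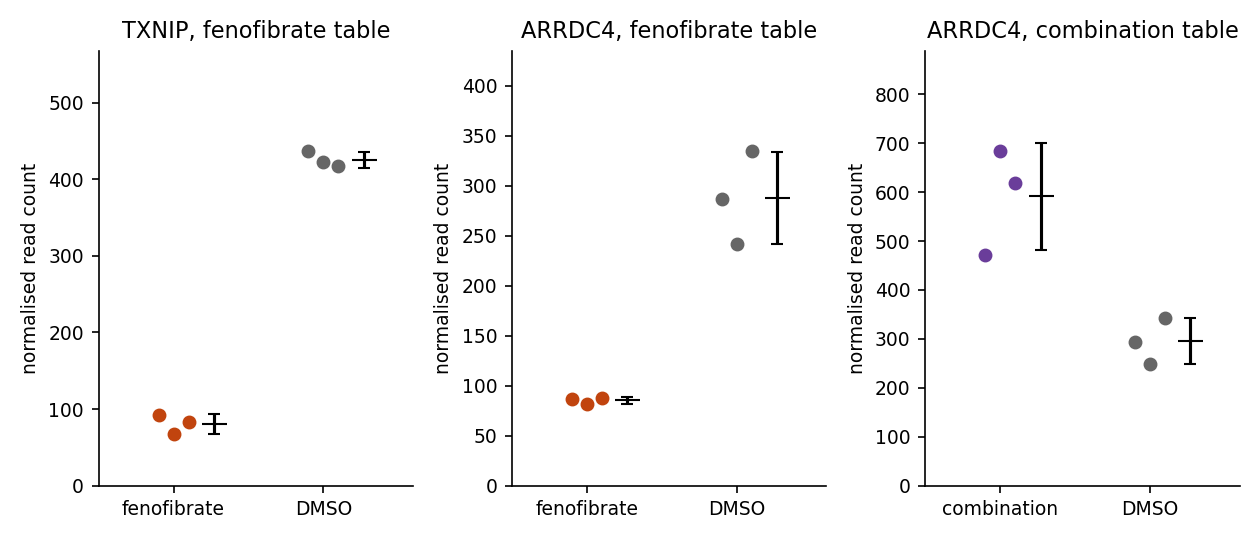
Normalised read counts (y axes, from 0) of TXNIP and ARRDC4 in each library of the tables that list them, with treated libraries left of DMSO. Points are the 3 replicates in order, and the bars beside them give the mean ± SD. Fenofibrate libraries lie below DMSO for both genes (80.9 ± 13.1 and 425 ± 10.3 for TXNIP), and combination libraries lie above DMSO for ARRDC4 (592 ± 109 and 295 ± 46.9).

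Values were also divided by the deposited gene length (3625 bases for TXNIP and 4072 for ARRDC4), so that genes can be set side by side. By these lengths the pair was at about the same level with fenofibrate but not with DMSO. The full-length coding transcript of TXNIP is shorter, at 2926 bases, and by that length TXNIP would stand higher in every library. The like level with fenofibrate therefore depends on the length chosen. The length-scaled level was 22.3 ± 3.61 for TXNIP and 21.0 ± 0.838 for ARRDC4 in fenofibrate libraries, and 117 ± 2.83 for TXNIP and 70.7 ± 11.4 for ARRDC4 in DMSO libraries. The ratio of TXNIP to ARRDC4 on this scale was 1.20, 0.923 and 1.06 in fenofibrate replicates 1 to 3, against 1.71, 1.96 and 1.40 in DMSO replicates 1 to 3. Each fenofibrate ratio was below each DMSO ratio, since TXNIP was lower by the larger factor.

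For the combination the comparison with DMSO gave ARRDC4 the opposite direction. Its normalised read counts were 471, 684 and 620 in combination replicates 1 to 3, against 294, 249 and 343 in DMSO replicates 1 to 3, from 430, 738 and 647 whole reads with the combination and 301, 271 and 321 with DMSO. The groups did not overlap, and the lowest combination value was that of replicate 1. Means were 592 ± 109 with the combination and 295 ± 46.9 with DMSO. The log2 fold change was 1.00 ± 0.17 by limma. It was 1.15 without combination replicate 1, and 0.88 without combination replicate 2 or without DMSO replicate 2. In the authors' deposited table for the combination, 3508 of an inferred 19944 tested genes were listed (17.6%), 2058 as higher (10.3%) and 1450 as lower (7.27%). ARRDC4, with the authors' log2 fold change of 1.01, stood just inside the limit of 1: only 7 of the 2058 had a smaller rise, from TNFSF9 at 1.00 to ATP6AP1L at 1.01, and RNF19B at 1.01 came next above it. Genes just outside the limit are not in the tables.

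**Figure D3:**
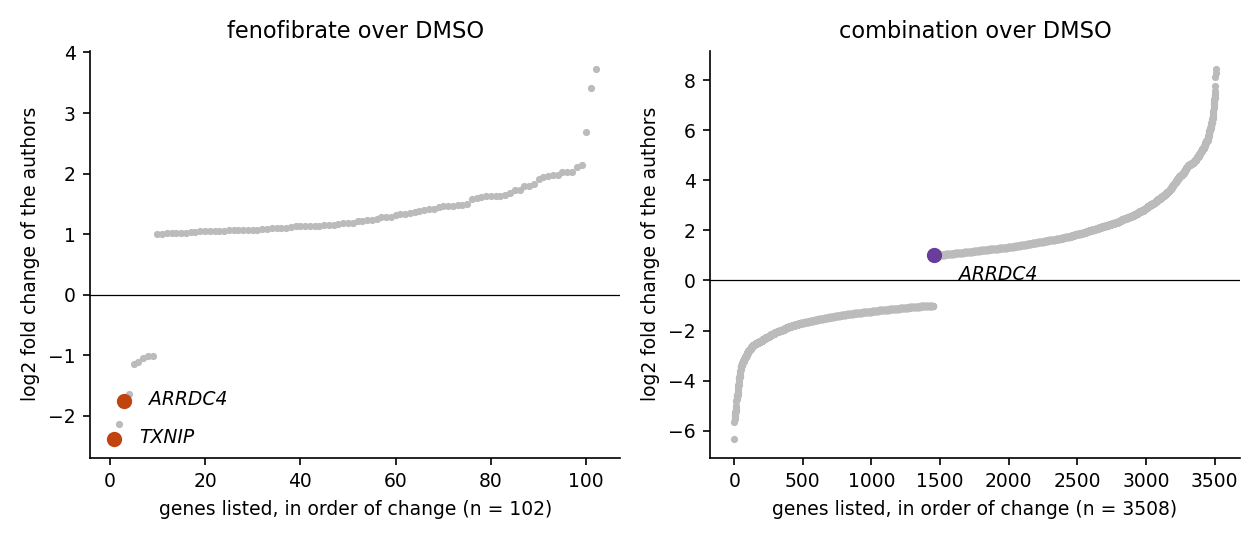
The authors' log2 fold change (y axes) of each gene listed with fenofibrate (left, 102 genes) and with the combination (right, 3508 genes), in order of change (x axes). TXNIP and ARRDC4 are at the low end with fenofibrate, at -2.39 and -1.75, and ARRDC4 is at the lower edge of the higher genes with the combination, at 1.01.

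Both treated groups had been set against the same DMSO libraries, whose reads were equal in the 2 tables for each of 65 genes listed in both. This allowed ARRDC4 to be put on one scale. On the scale of the combination table its values were 471, 684 and 620 with the combination, 89.2, 83.5 and 89.9 with fenofibrate, and 294, 249 and 343 with DMSO. The 3 groups did not overlap, with fenofibrate lowest, DMSO between and the combination highest, an order of means that the listings fix. The combination mean was 6.76-fold that of fenofibrate (592 ± 109 with the combination and 87.6 ± 3.50 with fenofibrate). On the log2 scale the difference was 2.73 ± 0.17 (limma, SE), with a 95% interval of 2.35 to 3.10, and 2.88 without combination replicate 1. The median difference over the 65 genes was 1.07, and ARRDC4 ranked 6 of 65 from the largest rise. No p is given, as both listings were known when the gene was chosen and fix the direction. They also set a floor under the size of the difference, which favours a high rank, so the rank is no support. The same comparison could not be made for TXNIP, nor any with ezetimibe for either gene.

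Ezetimibe alone had 0 of the 2 genes listed, where 472 of an inferred 13596 tested genes were listed (3.47%), 367 as higher (2.70%) and 105 as lower (0.772%). A gene can be missing from a table because it changed by less than 2-fold, its adjusted p was too high or it was not tested. Listed genes with a log2 change of 1 to 1.1 in either direction give a guide. At DMSO means of 300 to 600, around that of TXNIP, the authors' highest adjusted p was 7.15e-12 with ezetimibe (7 genes). With the combination it was 2.08e-05 (57 genes). At 200 to 400, around that of ARRDC4, it was 1.91e-07 with ezetimibe (7 genes). Uncalled genes are not seen, so the reason for either gene was not tested. The values of TXNIP in ezetimibe and combination libraries, and of ARRDC4 in ezetimibe libraries, are not analysed here.

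Other alpha-arrestins moved up rather than down where they were listed. Of the 6 genes of the family, fenofibrate had 2 listed as lower and 0 as higher, where 0.0737% of all tested genes were listed as lower. These 2 are TXNIP and ARRDC4, which were chosen because they were listed, so the count is no result about the family. Ezetimibe had 0 lower and 1 higher, against 2.70% of all tested genes listed as higher. The combination had 0 lower and 3 higher, the chosen ARRDC4 among them, against 10.3% of all tested genes listed as higher. ARRDC3, which marks beta-adrenergic receptors and other membrane proteins for ubiquitination, had 1264, 1168 and 1268 in ezetimibe replicates 1 to 3, against 518, 547 and 694 in DMSO replicates 1 to 3. It was higher in each ezetimibe library (log2 1.08 ± 0.11). With the combination ARRDC3 had 1373, 1988 and 1837, against 517, 545 and 693 with DMSO. As with ARRDC4, all combination libraries were above all DMSO libraries and replicate 1 was the lowest of them (log2 1.56 ± 0.16, and 1.72 without replicate 1). ARRDC2, another family member with the tail motifs, had 367, 330 and 377 with the combination, against 188, 190 and 141 with DMSO, without overlap (log2 1.06 ± 0.16, and 1.04 without combination replicate 1). ARRDC1 and ARRDC5 were in none of the tables. The authors' log2 fold changes of the 3 genes higher with the combination had a median of 1.05, against 1.82 over all 2058 genes listed as higher.

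Per kilobase of deposited gene length in DMSO libraries, ARRDC3 (119 ± 19.1) and TXNIP (117 ± 2.83) had the highest levels. These 2 did not differ beyond their spread by the TXNIP length of 3625 bases, and TXNIP would stand higher by its coding transcript. ARRDC4 followed at 72.5 ± 11.5 and ARRDC2 was lowest at 37.3 ± 5.97. Tables normalised separately are compared here, TXNIP coming from the fenofibrate table and the other 3 from the combination table, in which DMSO values were 1.03-fold higher. In combination libraries the length-scaled order was ARRDC3 (351 ± 64.9), ARRDC4 (145 ± 26.8) and ARRDC2 (77.2 ± 5.39). Of the 4 more distant beta and visual arrestins, which end signalling by G protein-coupled receptors, only ARRB1 was listed, as lower with the combination (201 ± 6.30 in combination libraries and 491 ± 49.1 in DMSO libraries).

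**Figure D4:**
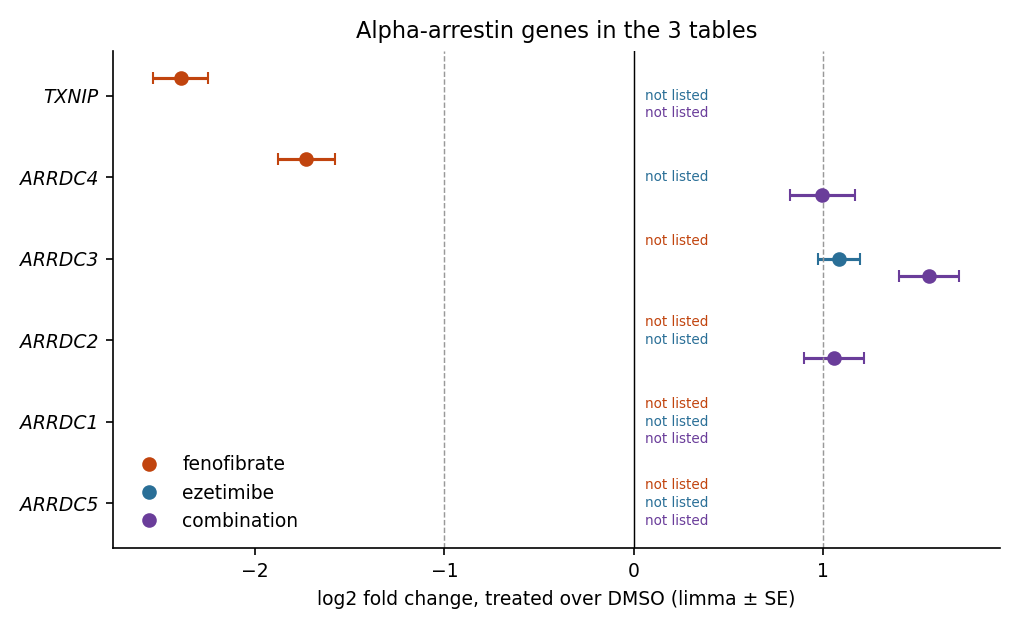
Log2 fold change over DMSO (x axis, limma, bars are SE from 3 against 3 libraries) of the 6 alpha-arrestin genes (rows) in the 3 tables, with dashed lines at the listing limit and missing entries written as not listed. With fenofibrate TXNIP (-2.39) and ARRDC4 (-1.73) are left of 0, and every other listed value is right of 0, from 1.00 to 1.56.

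The transcription factors that act on the pair belong to a network of Mondo, MYC and MAX proteins. Of 13 genes of the network 0 were listed with fenofibrate, where 0.835% of all tested genes were, and MLXIP, MLX and MLXIPL (which encodes ChREBP, the liver relative of MondoA) were in none of the tables. MXD1, a repressor that pairs with MAX, was higher with ezetimibe (324 ± 36.9 in ezetimibe libraries and 137 ± 24.0 in DMSO libraries) and with the combination (1249 ± 275 in combination libraries and 137 ± 23.9 in DMSO libraries). The combination also had MYC (7419 ± 85.9 in combination libraries and 1202 ± 62.4 in DMSO libraries) and MAX (995 ± 152 in combination libraries and 477 ± 50.5 in DMSO libraries) listed as higher and MXD3 as lower (93.2 ± 5.96 in combination libraries and 276 ± 44.1 in DMSO libraries). In all, 3 of the 13 were listed as higher and 1 as lower with the combination, where 10.3% of all tested genes were higher and 7.27% lower.

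Known targets of MondoA and ChREBP did not move as one group. Of 18 such genes, the pair included, fenofibrate had 2 listed as lower, TXNIP and ARRDC4, and 2 as higher, against 0.761% of all tested genes listed as higher. The higher ones were SCD, which makes monounsaturated fatty acids (21496 ± 925 in fenofibrate libraries and 8398 ± 567 in DMSO libraries), and PNPLA3, a lipid droplet protein (237 ± 47.0 in fenofibrate libraries and 85.4 ± 5.61 in DMSO libraries). With ezetimibe only PNPLA3 was listed (179 ± 7.21 in ezetimibe libraries and 87.9 ± 6.08 in DMSO libraries). The combination had 4 higher and 1 lower, where 10.3% of all tested genes were higher and 7.27% lower. Beside ARRDC4 these were the hexokinase HK2 (4304 ± 729 in combination libraries and 1165 ± 81.2 in DMSO libraries), RGS16, a brake on G protein signalling (284 ± 52.4 in combination libraries and 11.5 ± 9.20 in DMSO libraries), the hormone FGF21 at a low level (24.2 ± 2.57 in combination libraries, and 4.88, 0 and 0 in DMSO replicates 1 to 3) and, lower, the fructose kinase KHK (37.0 ± 2.49 in combination libraries and 104 ± 36.5 in DMSO libraries). The remaining 10 genes, among them PFKFB3, KLF10 and FASN, were in none of the tables.

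Genes of glucose uptake and phosphorylation were counted because both alpha-arrestins lower glucose uptake. The list also holds genes that act after uptake, among them PFKFB4 and PFKFB2. Of 24 genes 2 were listed as higher and 0 as lower with each single drug, where 0.761% of all tested genes were higher with fenofibrate and 2.70% with ezetimibe. HKDC1, a hexokinase-like enzyme, had 862 ± 4.86 in fenofibrate libraries and 389 ± 16.3 in DMSO libraries of that table, 962 ± 14.1 in ezetimibe libraries and 399.8 ± 17.5 in DMSO libraries, and 3275 ± 131 in combination libraries and 399 ± 17.0 in DMSO libraries. PFKFB4, which sets the level of an activator of glycolysis, had 75.7 ± 14.1 in fenofibrate libraries and 32.7 ± 10.4 in DMSO libraries, and 86.1 ± 6.37 in ezetimibe libraries and 33.7 ± 10.7 in DMSO libraries. With the combination 4 were higher and 1 lower, counts near the 10.3% higher and 7.27% lower of all tested genes. PFKFB2, of the same kind, was higher (816 ± 148 in combination libraries and 299.9 ± 16.5 in DMSO libraries), as was HK2. The glucose transporter SLC2A12 was lower (139 ± 36.8 in combination libraries and 435 ± 17.8 in DMSO libraries). The transporter SLC2A3 was listed as higher at very few reads, with 9.86, 19.5 and 9.58 in combination replicates 1 to 3 and 0, 1.84 and 0 in DMSO replicates 1 to 3. SLC2A1, the main glucose transporter of most cultured cells and a client of TXNIP, and HK1 were in none of the tables.

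Partners of the pair gave counts that went with the size of the table, in which 0.835% of all tested genes were listed with fenofibrate, 3.47% with ezetimibe and 17.6% with the combination. In the thioredoxin system, the target of TXNIP, 0 of 14 genes were listed with fenofibrate, SRXN1 was higher with ezetimibe (900.4 ± 5.54 in ezetimibe libraries and 402 ± 134 in DMSO libraries), and SRXN1 (1903 ± 208 in combination libraries and 401 ± 133 in DMSO libraries) and the reductase TXNRD1 (34944 ± 2534 in combination libraries and 12618 ± 611 in DMSO libraries) were higher with the combination. Thioredoxin itself (TXN) was in none of the tables. Of 9 NEDD4-family ligases, the enzymes that alpha-arrestins recruit, HECW1 was higher with ezetimibe (38.5 ± 8.37 in ezetimibe libraries and 12.7 ± 5.24 in DMSO libraries) and with the combination (48.9 ± 2.37 in combination libraries and 12.7 ± 5.22 in DMSO libraries), and HECW2 was listed with the combination at 4.38, 16.7 and 15.3, against 0 in each DMSO library. ITCH, which ubiquitinates TXNIP, was in none of the tables.

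AMP-activated kinase phosphorylates TXNIP, which is then broken down. Of 9 genes for its subunits and the kinases above it, 4 were listed with the combination, all subunits and all higher, and 0 with either single drug, where 10.3% of all tested genes were listed as higher with the combination. PRKAB1 had 1174 ± 153 in combination libraries and 511 ± 30.5 in DMSO libraries, PRKAB2 939.7 ± 80.4 in combination libraries and 411 ± 52.1 in DMSO libraries, and PRKAG2 1781 ± 68.2 in combination libraries and 859 ± 65.0 in DMSO libraries. The catalytic subunit PRKAA2 was listed at few reads (9.86, 13.0 and 21.1 in combination replicates 1 to 3, against 2.93, 0 and 1.07 in DMSO replicates 1 to 3). Of 7 genes of the NLRP3 inflammasome, which TXNIP binds, only the cytokine IL1B was listed, as higher with the combination at a low level (33.7 ± 6.63 in combination libraries and 6.16 ± 5.75 in DMSO libraries).

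Sensors and factors of endoplasmic reticulum stress were also counted, since in beta cells that stress is known to raise TXNIP through the kinases PERK (gene EIF2AK3) and IRE1 (gene ERN1). All listed members were higher: 1 of 7 with fenofibrate, 3 with ezetimibe and 5 with the combination. Of all tested genes 0.761% were listed as higher with fenofibrate, 2.70% with ezetimibe and 10.3% with the combination. In the fenofibrate table that member was DDIT3, the stress factor CHOP, with 273 ± 68.6 in fenofibrate libraries and 121 ± 16.0 in DMSO libraries. DDIT3 had 341 ± 36.2 in ezetimibe libraries and 124 ± 16.2 in DMSO libraries, and 1786 ± 379 in combination libraries and 124 ± 16.3 in DMSO libraries. With ezetimibe the other 2 listed were EIF2AK3 and XBP1, the factor spliced by IRE1 (3801 ± 167 in ezetimibe libraries and 1751 ± 57.2 in DMSO libraries). EIF2AK3 had 822 ± 91.1 in combination libraries and 260.1 ± 19.0 in DMSO libraries. ERN1 was listed with the combination (2226 ± 405 in combination libraries and 209.5 ± 12.0 in DMSO libraries). XBP1 had 7102 ± 681 in combination libraries and 1747 ± 58.3 in DMSO libraries. ATF6, the last of the 5, had 2579 ± 94.0 in combination libraries and 1160 ± 145 in DMSO libraries. ATF4 and ATF5 were in none of the tables. The median log2 fold change of the 5 members in the authors' deposited table for the combination was 2.02, against 1.82 over all genes listed as higher.

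**Figure D5:**
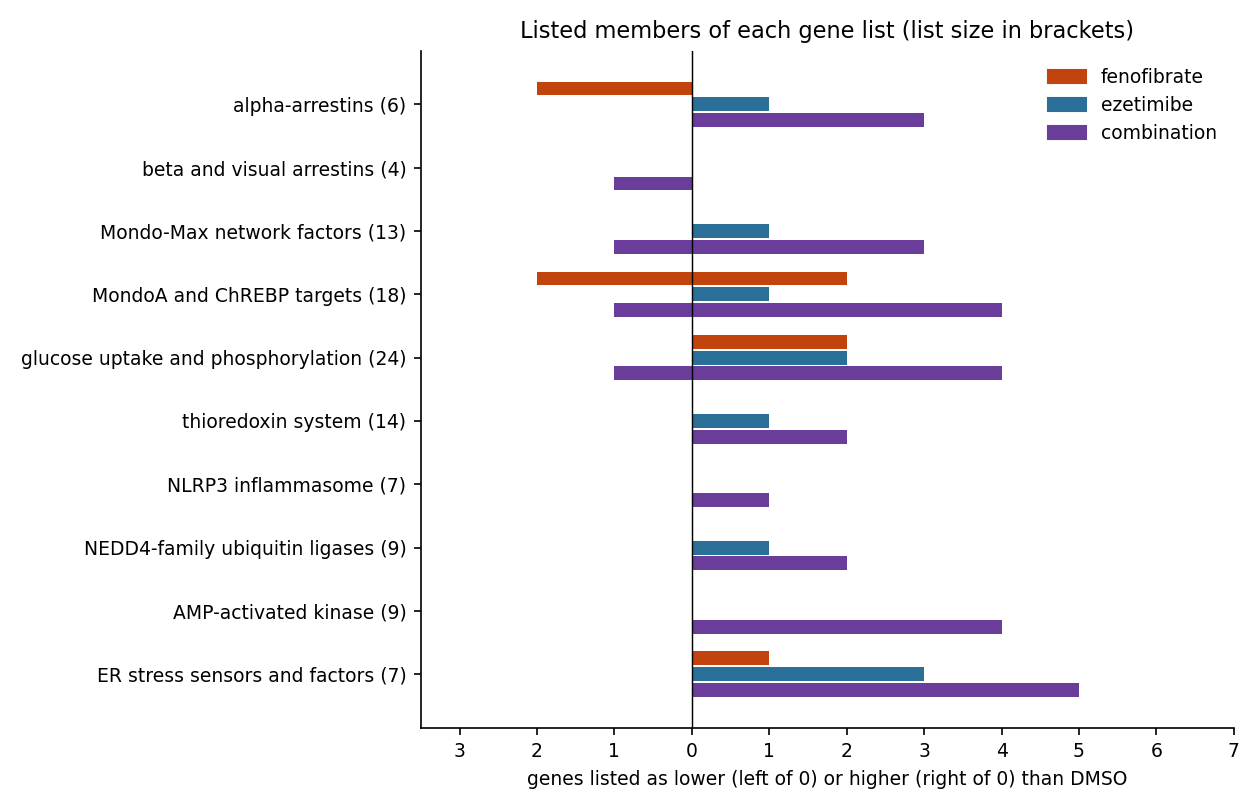
Number of genes of each list (rows, list size in brackets) that the authors listed as lower (left of 0) or higher (right of 0) than DMSO in the fenofibrate, ezetimibe and combination tables. Fenofibrate has lower members in the alpha-arrestin and the MondoA and ChREBP target lists, 2 in each, which are TXNIP and ARRDC4 both times.

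Genes with a like pattern were sought among those in exactly the same tables as each member, with a mean of at least 50, by Pearson correlation of log2(value + 1), which is a description over selected genes that share their libraries. For TXNIP there were 22 candidates over 6 libraries, and only 2 had a positive correlation. These were KBTBD8 (r = 0.87; 74.5 on average in fenofibrate libraries and 162 in DMSO libraries) and RGPD6 (r = 0.83; 32.3 on average in fenofibrate libraries and 102 in DMSO libraries). RGPD6 belongs to a family of near-identical copies, so its counts are uncertain. The log2 fold change of KBTBD8 was -1.21 ± 0.33, and -0.79 without fenofibrate replicate 2. The next 3 by the rule, AL035071.1, RTL5 and AP002387.1, ran opposite to TXNIP (r = -0.79, -0.84 and -0.94). The log2 fold change of AL035071.1 was 0.99, and 0.55 without fenofibrate replicate 2. For ARRDC4 there were 14 candidates over 9 libraries and none was close. The first 5 were BHLHE40 (r = 0.35), FUT1 (r = 0.32), AC124798.1 (r = 0.20), IRAK2 (r = 0.18) and GPR89B (r = 0.07), all listed as higher in both tables (GPR89B has a near-identical copy, so its counts are uncertain). BHLHE40, a repressor of the clock network, averaged 169 in fenofibrate libraries and 81.9 in DMSO libraries of the fenofibrate table, and 362 in combination libraries and 84.1 in DMSO libraries of the combination table.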

How the data were processed

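RNA-seq libraries were prepared from total RNA with an mRNA kit, per the labels' protocols. Tools named in the submitters' processing notes are fastp, featureCounts 1.5.0-p3 and HISAT2 2.0.5, with hg38 as the build. Which tool made the deposited comparisons is not given in the sources used. The deposited signal is a read count divided by 1 factor per library, as the values show: once divided by it, 100% were whole within 0.01. The deposited log2 fold changes, p-values and adjusted p-values are the authors' own. The number of genes they tested was inferred by setting p-values against adjusted ones, where 58.8%, 89.1% and 89.7% gave a whole rank (within 0.02) for fenofibrate, ezetimibe and the combination, so the first is the least certain.

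Log2(value + 1) was fitted with limma 3.58.1 (trend, R 4.3.3) over all genes of a table, or over the 65 genes shared by the fenofibrate and combination tables after scaling by the mean DMSO ratio of 1.03. Fold changes of low genes are drawn towards 0 by the added 1. The script was tested on simulated data. The gene lists (14, with 124 symbols, all in GENCODE release 29) and the members were chosen with earlier results of these data known. Named were TXNIP, ARRDC4, up to 6 listed genes of a list by size of change, and the 5 most correlated genes in the same tables; other genes were named after their values were seen. Promoters are from RefSeq (GRCh38.p14), in which both members matched by symbol; the first of 2 entries was used for TXNIP. Alternatives were other pseudocounts (0.5 and 5), a filter at a mean of 10, a replicate block, leaving out each library, other scales and edgeR 4.0.16 on whole reads of the combination table.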

Additional observations from a re-analysis of the deposited data

How the results depend on the processing

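The log2 fold changes of TXNIP and ARRDC4 kept their direction and moved by less than the SD between replicates under every alternative run. Leaving out 1 library at a time gave -2.50 to -2.26 for TXNIP with fenofibrate, -1.85 to -1.62 for ARRDC4 with fenofibrate, 0.88 to 1.15 for ARRDC4 with the combination, and 2.61 to 2.88 for ARRDC4 with the combination over fenofibrate. The range for ARRDC4 with the combination lies on both sides of the listing limit of 1. With edgeR on whole reads of that table (100% of values whole) it was 1.01. That edgeR called 3508 of 3508 genes says nothing of stability, as the table holds only genes the authors had called on the same libraries. Values of other genes were judged by that spread too, and the correlations by a fixed limit. Under the alternatives 649 moved by less and 8 by more, with 0 reversed. Of the 8, 7 belong to genes with few reads (HECW2, SLC2A3, FGF21 and PRKAA2). The last is the correlation of ARRDC4 with its nearest gene, 0.35 by Pearson (BHLHE40) and 0.52 by Spearman (IRAK2). For TXNIP the nearest gene was KBTBD8 by Pearson and RGPD6 by Spearman.

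Samples with the same replicate number did not clearly deviate together. Correlations were -0.15 to -0.05 between fenofibrate and DMSO and -0.05 to 0.10 between ezetimibe and DMSO. They were -0.33 to 0.16 between the combination and DMSO, and -0.68 to -0.26 between the combination and fenofibrate. No pairing by number was seen, but only listed genes could be checked, so pairing is not excluded. With the replicate number as a block the ARRDC4 difference between the combination and fenofibrate was 2.73 ± 0.18 (SE). Planned comparisons with ezetimibe and with the sum of the single drugs were not run, because neither gene is in the ezetimibe table, and edgeR was run for the combination against DMSO only. The tables hold called genes, so depth limits what can be said of missing ones.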

Other observations

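The tandem element of the TXNIP promoter was found in the promoters of 20 genes, and 4 of these were in any table. Of all tested genes 17.6% were listed in the combination table, and 10.3% were listed there as higher. These shares are of tested genes in that table alone, whereas the count of 4 is over all tables and over genes tested or not. The 4 also include TXNIP, which was chosen because it was listed, and the motif was chosen after its promoter had been seen. By this rough guide the count is near the background, and nothing is drawn from it. GFPT1, which draws fructose 6-phosphate into hexosamine synthesis, had a log2 fold change of 1.72 with the combination in the authors' deposited table. KCTD5, a cullin adaptor, had 1.24 with the combination in the authors' deposited table. MYL5, a myosin light chain, had 1.08 with ezetimibe and 1.25 with the combination in the authors' deposited table. All 3 were higher, and TXNIP, which was lower with fenofibrate, was the only one of the 20 in the fenofibrate table. These genes were named after their values were seen, and no test was made.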
